A study of Mus musculus with 24 samples.

Results

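Open chromatin that the peak lists held for only one neuron class, before and after the maturation of the cortex, was examined in a set of 7408 accessible regions, of 85867 in all. These spanning Cux2-only regions had a peak in at least 1 of the 4 early lists of Cux2-lineage callosal projection neurons (Cux2 CPNs; E18.5, P1, P3 and P7), in at least 1 of their 2 late lists (P21 and P48) and in none of the 6 lists of Tle4-lineage corticothalamic projection neurons (Tle4 CThPNs) of the same ages. Regions were made first, by joining peaks of the 12 lists wherever they shared 1 bp or more. The members were thus chosen on the measured presence of peaks, so presence, peak height and the class contrast are described below without a test, and tests were kept to position and sequence, which the choice did not use directly.

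The neurons came from the somatosensory and motor cortex of mice of strain C57BL/6 (a mixed background according to the methods) and were sorted by red fluorescence. The genotypes were Cux2-CreERT2:Ai14 and Tle4-2A-CreERT2:Ai14, in which a Cre recombinase placed at the Cux2 or the Tle4 gene switches on the Ai14 tdTomato reporter, and 4-hydroxytamoxifen given to the pregnant mother activated the Cre, so that all 12 groups shared the reporter and the drug. Each list was made from 2 libraries, each a pool of animals, and holds no value per replicate, so no replicate error can be given. Per the methods, the Cux2 line also labels some cortical interneurons. These were a small minority of the sorted cells by a single-cell count of marker genes that took both classes together. The methods also give a stronger papain digestion at the late ages. The study asked how chromatin changes as both classes mature and what is particular to each class.

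ATAC-seq reads open chromatin through a transposase that inserts sequencing adapters where DNA is not wrapped in nucleosomes. Open sites fall into promoters, at transcription start sites (TSSs), and distal elements such as enhancers, which bind combinations of transcription factors and tend to differ more between cell types than promoters do. Callosal projection neurons of the upper layers connect the hemispheres, whereas corticothalamic neurons of the deepest layer project to the thalamus; CUX1 and CUX2 are homeodomain proteins characteristic of the former.

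The sequences around the summits of 5 spanning regions are shown because they hold, in one window each, the kinds of motif that the comparisons below count. All are taken from the plus strand of mouse build NCBIM37 (mm9) and reach 100 bases to either side of the summit, and capitals mark matches, on either strand, to any of the 16 motifs counted. They were picked for holding a match, whereas the windows of the Gm9808, Mepe, Sox5 and Dlx6 regions named below held none. The first 3 of the 5 shown belonged to the 8 members with the highest peaks among those in all 6 Cux2 lists. They lay between genes with Pcdh20 as the nearest coding gene (chr14:88943463-88943663), in a gene desert whose nearest coding gene is Lingo2 (chr4:37493190-37493390), and near the start of Lap3 (chr5:45901436-45901636). The other two lay in introns of Cux2 (chr5:122322285-122322485) and Limch1 (chr5:67213933-67214133).
Pcdh20 intergenic, homeobox: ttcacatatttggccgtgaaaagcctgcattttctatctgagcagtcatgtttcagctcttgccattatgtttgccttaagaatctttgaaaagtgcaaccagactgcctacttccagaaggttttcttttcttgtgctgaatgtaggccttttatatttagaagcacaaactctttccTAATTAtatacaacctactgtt
Lingo2 intergenic, paired NEUROD E-boxes: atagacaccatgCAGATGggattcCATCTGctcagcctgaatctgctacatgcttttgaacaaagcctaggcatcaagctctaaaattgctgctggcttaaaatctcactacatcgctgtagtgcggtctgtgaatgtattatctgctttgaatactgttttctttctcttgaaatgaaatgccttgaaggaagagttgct
Lap3 promoter, NFI half-site and NEUROD E-box: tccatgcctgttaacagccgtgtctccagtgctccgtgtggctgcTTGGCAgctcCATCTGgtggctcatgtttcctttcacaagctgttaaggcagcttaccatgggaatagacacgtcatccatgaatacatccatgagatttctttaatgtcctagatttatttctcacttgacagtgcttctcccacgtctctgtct
Cux2 intron, NFI half-site: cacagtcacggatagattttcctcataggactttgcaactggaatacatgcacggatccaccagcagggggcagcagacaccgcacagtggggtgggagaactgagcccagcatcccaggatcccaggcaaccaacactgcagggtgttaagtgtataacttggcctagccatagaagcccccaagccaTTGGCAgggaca
Limch1 intron, POU octamer: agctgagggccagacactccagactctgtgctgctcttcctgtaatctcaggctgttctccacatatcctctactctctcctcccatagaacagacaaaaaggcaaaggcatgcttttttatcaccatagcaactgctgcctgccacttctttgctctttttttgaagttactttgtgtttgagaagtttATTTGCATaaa

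The 7408 spanning regions covered 5.78 Mb with a median width of 747 bp, and made up 8.63% of all regions. Cux2-only regions seen at one stage were more numerous, with 20343 in early lists only and 24889 in late lists only. The counterpart in Tle4 CThPNs, regions in an early and a late Tle4 list and in no Cux2 list, numbered 326. The Tle4 lists were shorter (6540 to 22443 peaks, against 21758 to 45649 in the Cux2 lists), and their lowest −log10 p values were higher, at 14.5 to 22.0 against 11.4 to 14.3. Only the Cux2 lists are named with a version, and it is not given in the sources used here whether the Tle4 peaks were called in the same processing run. A missing Tle4 peak is therefore a statement about these lists, and a weak Tle4 signal under a list's cutoff cannot be told apart from closed chromatin.

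The members were not spread evenly over the ages. The Cux2 list at E18.5 held 3273 of them, P1 held 1991, P3 held 3540, P7 held 5349, P21 held 5276 and P48 held 6275. These made up 9.76%, 9.26%, 12.2%, 18.2%, 14.2% and 13.8% of the regions of the respective lists. P7 was thus the early list in which the members took the largest share, and P1, the shortest Cux2 list, held the fewest.

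All 45 possible combinations of early and late lists occurred. The most frequent by far was P7 with P21 and P48, in 1596 regions (21.5%), followed by all 6 lists, in 568 regions (7.67%), and by P3, P7, P21 and P48, in 493. The lists at P7 and P21, the ages on either side of the boundary, shared 4224 members (57.0%). Both late lists held 4143 members (55.9%), whereas 3682 (49.7%) rested on a single early list. In 3807 members (51.4%) at least 1 age between the first and the last was without a peak, as in the 392 regions seen at E18.5 and P48 alone. Such a gap is an absence from a list filtered for reproducibility, not a measured closing of the site.

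**Figure D1:**
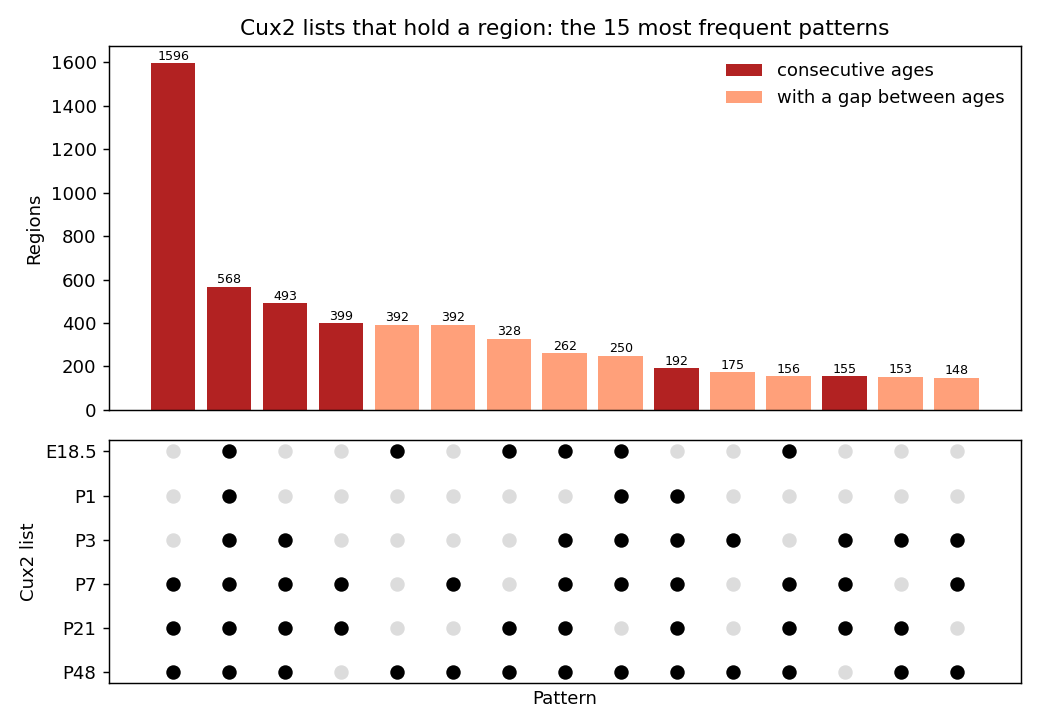
Bars give the number of spanning Cux2-only regions for each of the 15 most frequent combinations of Cux2 lists, with dark dots below marking the lists that held a peak. P7 with P21 and P48 was the tallest bar (1596 regions), and the pale bars are combinations with an age missing in between.

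The peaks of the members were mostly of moderate height within their lists. Median fold enrichment at the summit was 8.68, 9.49, 8.91 and 8.30 in the early lists, in order of age, and 9.47 and 8.81 at P21 and P48. As a percentile rank within the list, the medians were 37.3, 32.6, 36.5, 40.5, 46.0 and 44.1. Single-stage Cux2-only peaks of the same lists had much the same medians (32.8 to 44.9), and peaks shared with a Tle4 list stood higher (58.1 to 64.1). Few members had a rank over 90, from 3 member peaks at P1 (0.150%) to 378 at P21 (7.12%). The more lists held a region, the higher it ranked: the median of the mean rank was 33.7 for the 1579 regions in 2 lists and 51.8 for the 568 in all 6.

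Just inside the rule stood the 1579 regions with 1 early and 1 late list. Just outside stood 2293 regions with early and late Cux2 peaks that were excluded by a peak in exactly 1 Tle4 list, most often the P3 list (661 regions), then the P48 list (571). Their median rank was 45.6, against 41.6 over the members, and 26.2% of them were promoters. A further 12998 such regions had peaks in 2 or more Tle4 lists and a median rank of 62.1. Members lay a median of 20925 bp from the nearest Tle4 peak, and 218 of them (2.94%) lay within 1 kb of one.

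The 8 members that ranked highest among those in all 6 Cux2 lists were distal in 7 cases. The highest, in an intron of Prkar2a (chr9:108628147-108628808), a gene for a regulatory subunit of protein kinase A, had fold enrichments of 15.9, 15.9, 15.3, 13.7, 17.6 and 14.9 from E18.5 to P48. It was highest at P21, and all of these values stood above the upper quartile of member peaks in their lists.

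The region with Pcdh20, a protocadherin gene, as its nearest coding gene (chr14:88943338-88944275) had 14.2, 15.3, 13.6, 11.7, 15.6 and 12.9. The intergenic region 594045 bp from Lingo2 (chr4:37492825-37493775), which holds 2 copies of the NEUROD E-box in the printed window, had 13.5, 14.8, 12.7, 11.8, 14.6 and 15.1. The region near the start of the aminopeptidase gene Lap3 (chr5:45901286-45901835), the promoter among the 8, had 11.2, 13.2, 15.7, 13.0, 18.9 and 14.8. Intergenic regions with Mepe (chr5:104779954-104780575), Tmem18 (chr12:31383018-31384054) and Gm9808 (chr12:52196620-52197423) as nearest coding genes were also among the 8, and the Mepe region held the highest single value of the 8, 22.0 at P21. Fold enrichment was computed by the peak caller within each group, so its course over age carries no error and is given as a description.

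**Figure D2:**
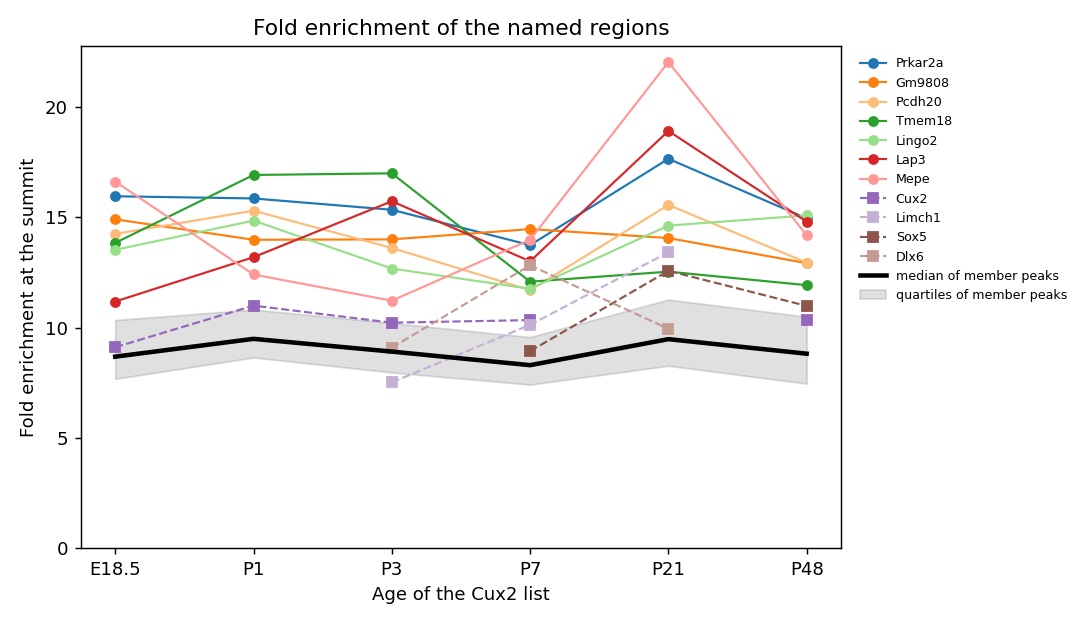
Fold enrichment at the summit in each Cux2 list is drawn for 7 of the 8 highest-ranked regions in all 6 lists (circles) and for the regions chosen by gene (squares, missing where the list had no peak), each named by its nearest coding gene. The black line is the median of the member peaks of each list (8.30 to 9.49) and the band their quartiles, and all 7 series of circles lie above the band at every age.

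Across all 7408 regions, 3285 (44.3%, 95% Wilson interval 43.2 to 45.5%) were intergenic, 2719 (36.7%, 35.6 to 37.8%) intronic, 447 (6.03%) exonic and 957 (12.9%, 12.2 to 13.7%) promoters, defined as within 1 kb of any annotated TSS. The intervals cover counting error only. Promoters were more frequent than among early-only (10.1%), late-only (6.42%) and spanning Tle4-only regions (5.83%; 19 of 326), and far less frequent than among regions open in both classes (36.6%). Over all regions the promoter share was 16.6% (14278 of 85867), which is above that of the members. Members lay a median of 20479 bp from a TSS.

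Position and sequence were then compared list by list. In each of the 6 Cux2 lists the member peaks were set against the single-stage Cux2-only peaks of that list and against its peaks in regions shared with Tle4 CThPNs, and the 6 differences were tested by an exact two-sided sign-flip test, adjusted by Benjamini-Hochberg over 42 tests. The smallest p that 6 lists can give is 0.03125. All 27 tests that passed did so at exactly this value, with an adjusted p of 0.0486 that they reach only because so many differences had one sign in 6 of 6 lists, and many of the same regions recur from list to list, so that the lists are not independent.

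Compared with shared peaks, member peaks were distal and poor in CpG. Promoter peaks made up 18.1%, 16.9%, 14.8%, 10.2%, 7.78% and 14.1% of member peaks from E18.5 to P48, and 48.7%, 54.5%, 49.7%, 46.8%, 37.0% and 42.0% of shared peaks. The groups did not overlap, and the mean difference was -32.8 percentage points (SD 4.10 over 6 lists; exact sign-flip test, adjusted p = 0.0486). Intron and intergenic shares were higher by 16.4 and 14.6 points (the same p and adjusted p). CpG-rich windows, with over 50% GC and an observed/expected CpG ratio over 0.6, made up 8.68% of member windows on average and 38.01% of shared windows. Median GC content was 45.9% against 53.0%. Without promoter peaks these gaps were much smaller, at -2.96 points for CpG-rich windows and -1.49 points for GC content. Shared peaks also ranked higher in their lists, with medians of 58.1 to 64.1 against 32.6 to 46.0. A role of peak height in the differences from shared peaks, those of the motifs below included, was not tested.

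Compared with single-stage Cux2-only peaks, the members had more promoters in 6 of 6 lists, by a mean of 4.90 points (13.6% against 8.73%; exact sign-flip test, adjusted p = 0.0486). The gap was 7.48 points at E18.5, 1.07 at P7 and 7.13 at P48. CpG-rich windows were more frequent by 3.73 points on the same test. Both differences rested on the P48 list: with that list left out and the regions rebuilt, the promoter difference was -1.51 points and the CpG-rich difference -2.26 points. With lists cut to equal length they were -3.16 and -3.78 points. Without Tle4 P3 they were 7.60 and 6.25 points, and without Tle4 P48 the CpG-rich difference (3.53 points) no longer passed (exact sign-flip test, adjusted p = 0.0938). None of the 42 tests passed without Tle4 P48 or without Tle4 P1 (exact sign-flip test, smallest adjusted p = 0.0547 and 0.0505), the promoter difference included. Intron share, intergenic share and median GC content did not pass (exact sign-flip test, adjusted p = 0.219, 0.159 and 0.188).

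**Figure D3:**
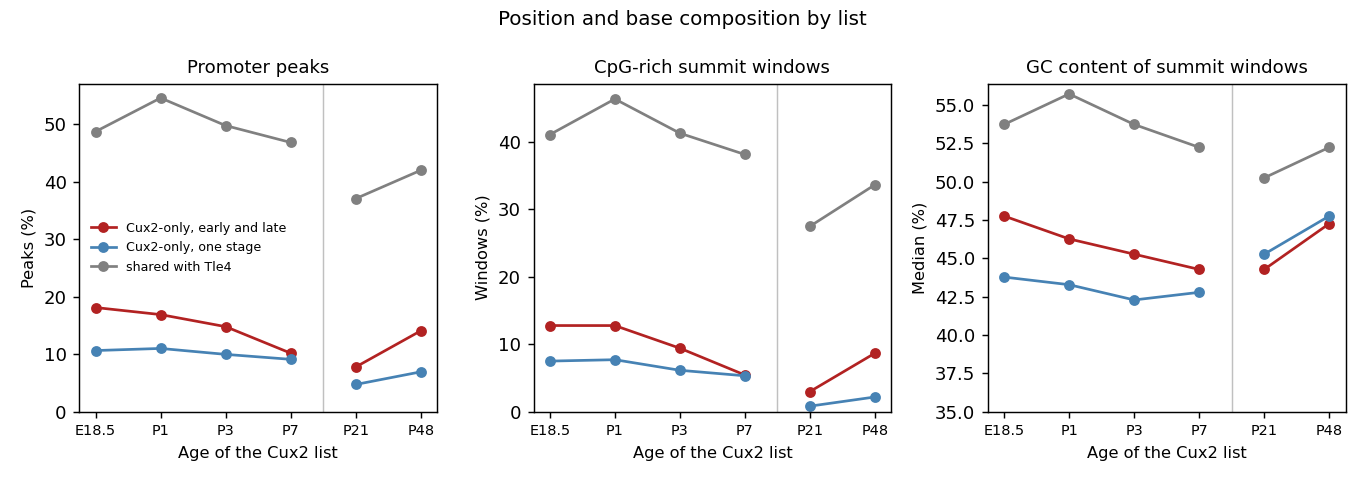
Each panel plots 1 value per Cux2 list for member peaks (red), single-stage Cux2-only peaks of the same list (blue) and peaks in regions shared with Tle4 lists (grey), as a share of peaks or windows in percent or as a median GC percentage (this axis starts at 35%). Red lies above blue for promoters and CpG-rich windows in 6 of 6 lists, by as little as 1.07 and 0.11 points at P7.

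The late list that held a member separated the promoters. Of the 2132 members whose late peak was at P48 alone, 535 (25.1%, 95% Wilson interval 23.3 to 27.0%) were promoters, and 18.53% had a CpG-rich summit window. Of the 1133 with a late peak at P21 alone, 59 (5.21%, 4.06 to 6.66%) were promoters, and of the 4143 in both late lists 363 were (8.76%, 7.94 to 9.66%). Late-only Cux2 regions had the same order at lower shares, with 9.35% promoters for P48 alone, 3.62% for P21 alone and 5.41% for both. Patterns that joined E18.5, P1 and P3 to P48 alone held the largest share of promoters among patterns of over 100 regions, 38.5% of 135 regions. P48 was also the longest list, and a role of list length in these shares was not tested.

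The early side showed a graded order too. Members whose earliest list was E18.5 were promoters in 18.6% of 3273 regions, those first seen at P1 in 12.5% of 545, at P3 in 9.31% of 1203 and at P7 in 7.04% of 2387. The distal share of the set was thus largest among regions first listed at P7.

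**Figure D4:**
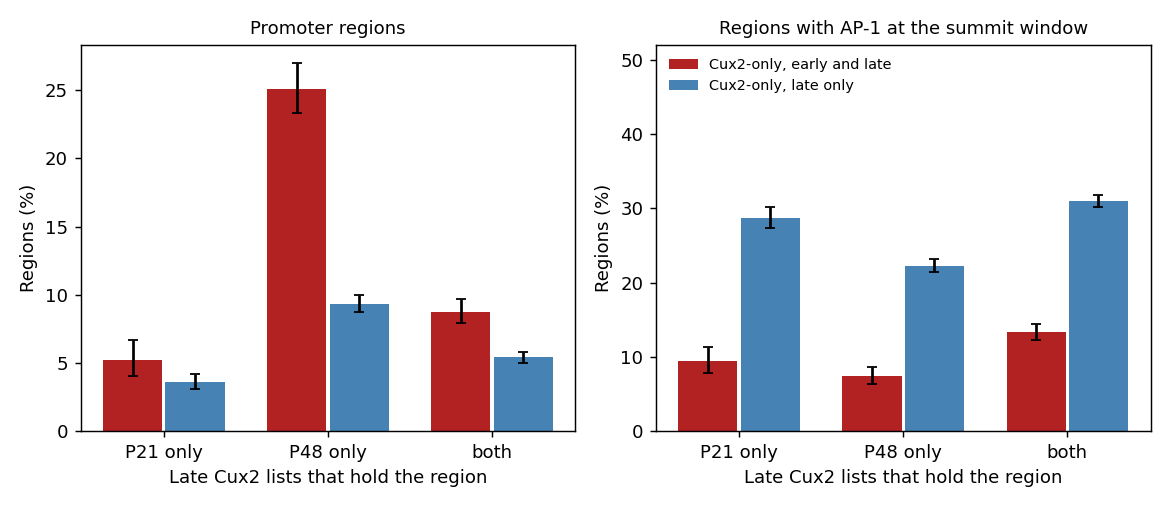
Bars give the percentage of regions that were promoters (left) or held an AP-1 motif in the summit window (right), by the late Cux2 lists that held the region, for spanning Cux2-only regions (red) and late-only Cux2 regions (blue), with 95% Wilson intervals for counting error. The red promoter bar for P48 alone stands at 25.1%, and the blue AP-1 bars (22.2 to 31.0%) stand above the red ones (7.41 to 13.3%).

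Short motifs were counted in the same windows, as exact words on both strands, and a match is only a match of letters. Neuronal basic helix-loop-helix factors such as NEUROD2 and NEUROD6 bind E-boxes of the form CAGATG, which stood in 21.3% of all peak windows. Members held it in 31.98%, 26.95%, 26.6%, 28.2%, 31.2% and 30.7% of windows from E18.5 to P48, against 14.0 to 20.99% of shared windows. The mean difference was 12.0 points (SD 1.65; exact sign-flip test, adjusted p = 0.0486), and 5.21 points without promoter peaks. Against single-stage peaks it was 2.19 points, positive in 5 of 6 lists, and did not pass (exact sign-flip test, adjusted p = 0.0875). The second E-box counted, with the letters CAGCTG (13.1% of all windows), was also more frequent than in shared windows, by 6.16 points, and did not pass against single-stage ones.

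SOX and POU words were more frequent in member windows than in both groups of the same lists. The SOX core ACAATG, read by SRY-related factors of which several act in young neurons, was in 7.39% of all windows. It stood in 12.8%, 13.8%, 12.6%, 12.5%, 12.5% and 11.1% of member windows, at least 0.81 points above the single-stage peaks and at least 5.25 points above the shared peaks of each list. The octamer ATGCAAAT, bound by POU factors including the upper-layer proteins POU3F2 and POU3F3, was in 2.74% of all windows and in 5.24%, 5.16%, 5.06%, 4.88%, 5.25% and 3.92% of member windows. Member windows exceeded shared ones by 2.64 to 2.95 points from E18.5 to P21 and by 1.94 at P48, and exceeded single-stage ones by 0.09 points at E18.5 and by 2.19 points at P21 (mean 0.89). Both words passed both comparisons (exact sign-flip test, adjusted p = 0.0486), and both differences were of the same sign without promoter peaks (5.70 and 2.22 points against shared peaks). Counted once per region, at the highest-ranked summit, members were close to early-only regions, with SOX words in 11.8% against 11.4% (95% Wilson interval 10.9 to 11.8%) and octamers in 4.54% against 4.48% (4.21 to 4.78%), whereas late-only regions held 10.8% (10.4 to 11.2%) and 2.60% (2.41 to 2.80%). The octamer difference from single-stage peaks was 0.40 points without the Cux2 P21 list, 1.71 without Cux2 P48 and 5.30 with lists of equal length, and it no longer passed without Tle4 P3 or Tle4 P48 (0.69 points each; exact sign-flip test, adjusted p = 0.188 and 0.164). The SOX difference was 2.32 points without Cux2 P48, 0.81 without Tle4 P3 and 6.58 with lists of equal length. Without Tle4 P1 or Tle4 P48 none of the 42 tests passed, those of the SOX word included.

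The half-site TAGGTCA of ROR nuclear receptors, of which RORB marks layer 4 neurons, was rare (0.861% of all windows). Its share of member windows was 0.82%, 1.202%, 1.38%, 2.29%, 2.13% and 1.87% from E18.5 to P48. The level at P7, P21 and P48 was above that of E18.5, P1 and P3. Members first listed at P7 held it in 2.85% of regions and those first listed at E18.5 in 1.10%. It passed against single-stage peaks (mean difference 0.69 points) and against shared peaks (0.90 points), but the differences were 0.32 and 0.58 points without the Cux2 P7 list, and the former was 0.39 points with lists of equal length. The MEF2 word CTANAAATA, of activity-regulated MEF2 factors, passed both (0.78 and 1.24 points), but its difference from shared peaks was 0.03 points without promoter peaks, and that from single-stage peaks was 0.48 points without Cux2 P21, 1.30 without Cux2 P48 and 0.055 with lists of equal length.

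AP-1, the FOS and JUN dimer of activity-dependent enhancers, separated the spanning regions from late-only ones. Its word TGANTCA stood in 9.90% of all windows, and in 8.87%, 8.02%, 8.60% and 8.91% of member windows at E18.5, P1, P3 and P7, then in 13.3% and 12.3% at P21 and P48. Late-only peaks held it in 30.2% and 27.4% at P21 and P48, and early-only peaks in 5.04 to 6.42%. Members were therefore above single-stage peaks in all 4 early lists and below them in both late lists, and the mean over 6 lists was not a useful summary (-3.50 points; exact sign-flip test, adjusted p = 0.525). Against shared peaks members were higher in 6 of 6 lists, by 4.22 points at E18.5 and 0.55 at P21 (mean 2.89 points, adjusted p = 0.0486 by the exact sign-flip test), but by a mean of 0.21 points without promoter peaks.

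Among the members, the AP-1 share varied with the number of lists that held a region. With both late lists it was 14.98%, 12.6%, 14.1% and 7.22% for 1, 2, 3 and 4 early lists (2103, 863, 609 and 568 regions). With a single late list it was 9.18%, 8.53%, 5.56% and 6.23% (1579, 797, 504 and 385 regions). It was thus higher with both late lists at each number of early lists, with no steady order over the early lists. With and without the NEUROD E-box its share was close: 10.8% of member windows with the E-box and 11.1% of those without it held an AP-1 word.

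The homeobox core TAATTA (3.96% of all windows) went the opposite way. Members held it in 5.81%, 6.16%, 6.18%, 5.87%, 5.72% and 4.09% of windows, early-only peaks in 8.08 to 12.3% and late-only peaks in 3.94% and 2.71%. The members thus lay between both single-stage groups, and above shared peaks in 6 of 6 lists (mean 2.86 points; exact sign-flip test, adjusted p = 0.0486).

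**Figure D5:**
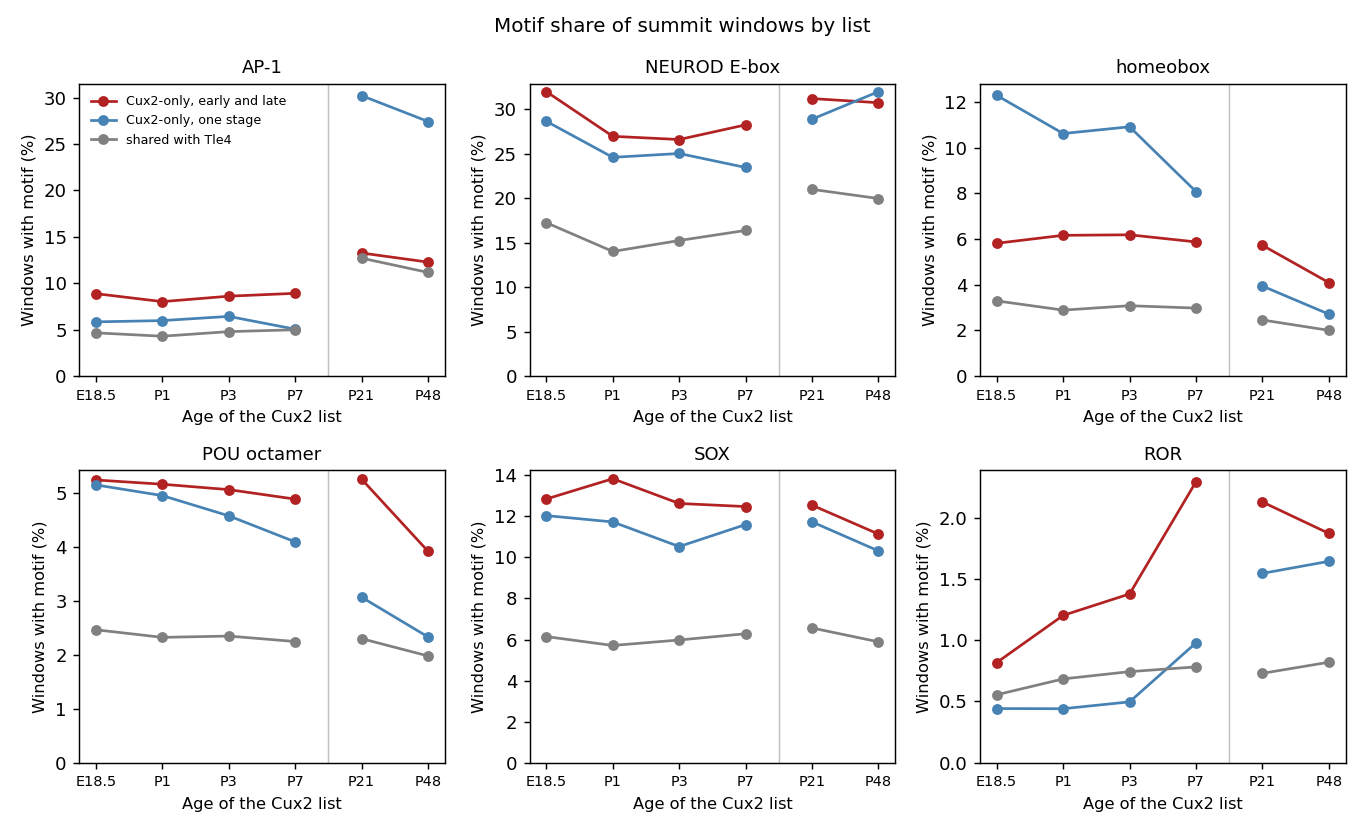
The percentage of summit windows with each word is plotted by Cux2 list for member peaks (red), single-stage Cux2-only peaks (blue) and shared peaks (grey). For AP-1, blue rises from 5.04 to 6.42% in early lists to 27.4 and 30.2% in late lists while red stays between 8.02 and 13.3%.

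In all, 14 of the 16 motifs passed against shared peaks and 6 against single-stage peaks. Besides those named, the GC-rich SP/KLF word GGGCGGGG, the CRE TGACGTCA, the EGR word GCGTGGGCG, the RFX word GTTGCCAT, the T-box word AGGTGTGA and the CUX word ATCGAT were less frequent in members than in shared windows, for SP/KLF by 11.2 points. The CUX word was in only 12 of the 7408 highest-ranked member windows (0.162%), and was lower than in single-stage windows in 6 of 6 lists, whereas EGR, in 13 windows, was higher. At P1 the CUX word was in 0.150% of 1996 member windows and 0.180% of 4990 single-stage windows. At P21 the EGR word was in 0.113% of 5311 and 0.0842% of 16630. Such differences rest on very few windows, and the shared adjusted p of all passing tests needs these signs to hold. The NFI half-site TTGGCA and the CTCF word AGGTGGCAG passed neither comparison.

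The spanning regions of the other class gave a point of reference, without a test since its windows come from Tle4 peaks. The NFI half-site was in 128 of the 326 spanning Tle4-only regions (39.3%, 95% Wilson interval 34.1 to 44.7%) and in 13.5% (12.7 to 14.3%) of the spanning Cux2-only regions. SOX words were in 3.99% (2.35 to 6.70%) and 11.8% (11.04 to 12.5%), octamers in 0.613% (0.168 to 2.21%) and 4.54% (4.08 to 5.03%), and NEUROD E-boxes in 23.6% (19.3 to 28.5%) and 30.0% (29.0 to 31.1%). The 7477 Tle4-only regions of one stage gave a similar picture. They held the NFI half-site in 30.1% (29.1 to 31.2%), SOX words in 3.25%, octamers in 1.75% and NEUROD E-boxes in 22.3%. The contrast between the classes was thus not particular to spanning regions, and its cause was not tested. NFI factors include NFIA and NFIB, which are known from deep-layer neurons.

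The summits of a member lay close together across stages. Over the 8 pairs of an early and a late Cux2 list, the median distance between the summits in the same member was 39 to 44 bp, and 55.1 to 59.9% of pairs lay within 50 bp. In regions shared with Tle4 CThPNs the medians were 29 to 32 bp, so the distance was longer in members by a mean of 10.1 bp (SD 1.64 over 8 list pairs, which share lists). Within a stage the member distances were shorter than across stages, with medians of 25 to 33 bp between neighbouring ages, and again longer than in shared regions, at 20 to 27 bp. These values follow from peak position and come with no test, and shared peaks were also higher.

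Assigned to the nearest protein-coding TSS within 100 kb, 5512 members fell to 4041 of 22225 genes (18.2%), and 1896 had no such TSS. Of all regions near a coding TSS 8.67% were members, and this is the level against which the gene counts below stand. Most of these genes (3041) had 1 member. Long genes offer more room, so a high count says little about a gene by itself.

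The gene with the most members was Pde4d, a phosphodiesterase that degrades cyclic AMP, with 11 of its 73 regions, 8 of them in introns and 2 of them in all 6 Cux2 lists. Dab1, the intracellular adaptor of reelin signalling that guides migrating neurons, had 8, all intronic, of 34 regions. Opcml, a cell adhesion molecule of the IgLON family, and Prickle2, of the planar polarity pathway, had 8 each, and all 8 of Opcml were in both late lists. Arhgap26, Maml3 (a co-activator of Notch signalling) and Spock1 had 7. Next with 6 came Cntnap2, Dlg2, Kirrel3, Magi2, Nav3, Runx1t1, Snd1, Xrcc6bp1 and Zranb3, among them the scaffolds of synapses Dlg2 and Magi2 and the adhesion proteins Cntnap2 and Kirrel3. C530008M17Rik, Dst and Elmo1 were among the 21 genes with 5.

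The share of a gene's regions that were members varied among the genes with the most members. At Zranb3, a DNA helicase gene, 6 of 13 regions (46.2%) were members, and at Xrcc6bp1 again 6 of 13, in each case with all 6 in both late lists. At Dlg2 the share was 6 of 65 (9.23%), near the overall 8.67%. The genes were chosen by their number of members, which favours shares above that level, so these shares are a description only.

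Gene lists were drawn up with earlier results of these data known, so they are described by counts only. Of 30 upper-layer callosal genes, 15 had a member, 27 members of 297 regions (9.09%), close to the overall 8.67%. Limch1, Ptn (pleiotrophin, a growth factor) and Unc5d (a netrin receptor of upper-layer neurons) had 4 each, Chn2, Cux1 and Rasgrf2 had 2. Genes without a member included Mef2c, Tmem163, Rorb, Pou3f3 and Pou3f2, with none among 17, 16, 9, 8 and 4 regions. Cux2 itself had 1 member among 20 regions, of which 10 were early-only, 8 late-only and 1 shared. The Cux2 member (chr5:122322240-122322617), intronic and 1477 bp from a TSS, had fold enrichments of 9.11, 10.99, 10.2 and 10.3 from E18.5 to P7, no peak at P21 and 10.3 at P48. The best member of Limch1 (chr5:67213586-67214299) had 7.52 at P3, 10.1 at P7 and 13.4 at P21.

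Of 21 deep-layer corticothalamic genes in the annotation, 8 had a member, 12 of 175 regions (6.86%). Sox5, which restrains corticofugal fate programmes, had 3, and its best one (chr6:143802367-143803027) had 8.93, 12.6 and 10.98 at P7, P21 and P48. Ctgf and Nfib had 2 and Cdh18, Etv1 and Fezf2 had 1. Tle4, Bcl11b, Foxp2 and Tbr1 had none among 10, 10, 12 and 2 regions. Members were thus also found beside genes of this list, at a share under the overall 8.67%. Nfib, and Nfia with 1 member, are also among the pan-cortical pyramidal factors counted below.

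Since the Cux2 line also labels interneurons, their genes were counted. Of 25, 7 had a member (Dlx6, Erbb4, Npy, Prox1, Reln, Sp9 and Sst, with 1 each), 7 of 90 regions (7.78%). The GABA synthesis and transport genes Gad1, Gad2 and Slc32a1 and the genes Lhx6, Pvalb and Vip had none, among 2, 1, 2, 1, 0 and 5 regions, so that there was little in which to find one. The Dlx6 member (chr6:6723634-6724205), 89129 bp from that gene, had 9.09, 12.8 and 9.94 at P3, P7 and P21. Astrocyte genes had 4 members of 67 regions (5.97%, among them 1 at Gfap, a promoter), and oligodendrocyte genes 3 of 56 (5.36%). Endothelial genes had 4 of 42 (9.52%), progenitor genes 4 of 53 (7.55%) and microglia genes 0 of 13. The part of such cells in the member regions was not tested.

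Axon guidance genes had 32 members of 398 regions (8.04%) at 19 of 49 genes, led by Unc5d with 4 and by Plxnc1 and Slit1, a semaphorin receptor and a Robo ligand, with 3 each. Ephb2, Robo2 and Sema3a had 2. Glutamate receptor and postsynaptic genes had 35 of 527 (6.64%) at 19 of 44, with Dlg2 at 6, the scaffolds Dlgap1 and Shank2 at 4, the metabotropic receptor Grm3 at 3 and Gria3 and Lrrtm1 at 2. Cadherin and cell adhesion genes had 42 of 593 (7.08%) at 23 of 45, with Opcml at 8, Cntnap2 at 6, Odz3 at 5 and Cdh8, Cntn5 and Pcdh15 at 2. Pan-cortical pyramidal transcription factors had 21 of 253 (8.30%) at 13 of 24, with Myt1l, Neurod6 and Tcf4 at 3, Nfib and Nfix at 2 and Egr3 at 1. In each of these 4 groups the share of regions that were members lay at or under the overall 8.67%.

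By chromosome, members made up 7.35% (chromosome 7) to 9.81% (chromosome 10) of the regions of an autosome and 8.27% of those on X. Neighbouring members lay a median of 174427 bp apart, and 346 of 7388 gaps (4.68%) were under 10 kb.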

How the data were processed

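Per the labels and the study's methods, the authors aligned 50-bp single-end reads to NCBI37 (mm9) with Bowtie2, removed duplicates with Picard and called peaks with MACS2 on the pooled replicates of each group, keeping those that passed an irreproducible discovery rate filter; a transposase shift of the read ends is not mentioned. Each deposited peak list gives the fold enrichment at the summit, a ratio over background, and the −log10 p, as the authors' peak caller wrote them. With no read counts in the lists, library depth (24 libraries) is unknown here.

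The 292934 peaks on chromosomes 1 to 19, X and Y were merged (overlap of at least 1 bp), and 60 mitochondrial peaks were left out. The reference was NCBIM37 with GENCODE vM1 (86842 TSS positions). Its chromosome 1 is 197195432 bp long and the last peak there ended at 197068295; 1 peak passed a chromosome end. Coordinates are 1-based. Promoters lay within 1 kb of a TSS, and sequence was read from 100 bases on either side of the summit. Python 3.11.15 with numpy 2.4.6, pandas 2.3.3 and scipy 1.17.1 was used, and the merging and the sign-flip test were tested on simulated data. Differences were taken per Cux2 list and tested over 6 ages by exact sign flips (64 patterns), with Benjamini-Hochberg adjustment over 42 tests. Shares over regions carry 95% Wilson intervals. Named regions were the 8 with the highest mean rank of fold enrichment in all 6 lists, plus the highest-ranked member of Cux2 and of 1 gene of the upper-layer, deep-layer and interneuron lists. Named genes were the 20 with the most members and up to 6 per list; genes without members and Sst were added after their values were seen. A few of these genes and regions are not reported here. The members, motifs and gene lists were chosen with earlier results of these data known. Alternatives varied the peaks kept, the merge, the classes, the windows, the promoter distance and the lists used.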

Additional observations from a re-analysis of the deposited data

Results flagged for a closer look

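Against single-stage Cux2-only peaks, 4 measures had one sign in all 4 early lists and the other in both late lists; the difference between stages was not tested. The AP-1 word differed by a mean of 2.78 points over the early lists and -16.1 points over the late lists. The homeobox word differed by -4.47 and 1.58 points, median GC content by 2.86 and -0.746 points, and the intergenic share by -4.46 and 1.46 points. The comparison group changes with the stage, being early-only regions in early lists and late-only regions in late ones, and the levels behind the AP-1 values were 8.60% in members against 5.82% early, and 12.8% against 28.8% late.

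For the POU octamer against shared peaks, the P48 list stood far from the other 5, with a difference of 1.94 points. Chance alone flags about 1 in 20 groups, and 24 were examined.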

How the results depend on the processing

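The calls sat at the edge of what 6 lists allow. The 27 passing tests shared an adjusted p of 0.0486, and once fewer than 27 of the 42 differences have one sign in 6 of 6 lists the smallest adjusted p passes 0.05 for all tests at once, so the number of motifs passing was 0 for both comparisons with equal list length, a common −log10 p, regions in more lists, windows of 50 or 200 bases to either side of the summit, promoter peaks left out, and only windows of 40 to 50% GC. The last 2 settings were chosen after seeing the data. The direction of the differences is therefore given too, as a description. The 27 were selected for one sign in 6 of 6 lists, and the settings reuse the same peaks. A kept direction was thus favoured in advance and is no separate support. Of the 27, 27 kept the direction of their mean difference with the common −log10 p and with regions in more lists. With equal list length 23 did, and with the shorter and the longer window 27 and 26. Without promoter peaks 24 did, and in the windows of 40 to 50% GC 18. Fewer kept it in every list, on which the calls rest. This was so for 21 with the common −log10 p, 23 with regions in more lists and 17 with equal list length. It was so for 23 with either window, 19 without promoter peaks and 15 in the windows of 40 to 50% GC.

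The number of members was 380 with equal list length (6538 peaks in each list), 1527 with a common −log10 p of at least 22.0 and 2040 when at least 2 early and both late lists were required. It was 7400 with a merge overlap of 100 bp and 7190 with no Tle4 peak within 1 kb, and 7408 by construction when an early and a late peak had to overlap directly. With equal list length the differences from shared peaks were -55.3 (promoter), 23.3 (intron), 29.4 (intergenic), -14.1 (median GC) and -48.4 (CpG-rich) points, larger in size but no longer passing. Those from single-stage peaks turned over, to -3.16, 1.34, 2.47, -1.99 and -3.78 points, and that of the homeobox word to 1.73. With the common −log10 p the differences from shared peaks were -47.9, 21.9, 24.4, -11.8 and -43.2, and those from single-stage peaks 1.59 (promoter), 0.528 (CpG-rich) and, turned over, 0.0963 (intergenic). With regions in more lists they were -35.4, 17.7, 16.7, -8.29 and -32.1 from shared peaks, and 2.32 (promoter) and 0.886 (CpG-rich) from single-stage peaks. For median GC and CpG-rich windows against shared peaks, and CpG-rich windows against single-stage peaks, the values were -7.43, -27.4 and 4.06 in the shorter window, -6.94, -30.6 and 3.06 in the longer window, -6.49, -30.1 and 3.16 over whole peaks, and -1.49, -2.96 and 1.33 without promoter peaks. The MEF2 difference from shared peaks was -0.585 in the windows of 40 to 50% GC. The cause of these changes was not tested. Promoter distances of 500 bp or 2 kb, distances from the summit, and summits of regions with a single peak in each list changed no call.

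Leaving out 1 list at a time gave 5015 to 8079 members. Without a Cux2 list 5 ages remain, whose smallest exact permutation p is 0.0625, so nothing could pass. Over the 12 lists, the differences from single-stage peaks ranged from -1.51 to 7.6 (promoter), -3.76 to 1.44 (intron), -4.69 to 0.785 (intergenic), -0.149 to 2.99 (median GC) and -2.26 to 6.25 (CpG-rich) points, each turned over by leaving out Cux2 P48 alone (-1.51, 1.44, 0.785, -0.149 and -2.26). Those from shared peaks ranged from -38.3 to -29.4, 14.3 to 19, 13.4 to 18, -9.1 to -6.47 and -34.3 to -26.1. From 0 to 8 motifs passed against single-stage peaks and 0 to 14 against shared peaks, with 0 also without Tle4 P1 or Tle4 P48. No paired analysis was possible because each list pools the 2 replicates of its group.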
